A study of Arabidopsis thaliana with 8 samples.

Results

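The catalases and ascorbate peroxidases are heme enzymes that remove hydrogen peroxide inside plant cells. Their 10 genes were picked out by gene identifier from a table of 33199 genes, as members of these families and with earlier results of these data known: the 3 catalase genes CAT1, CAT2 and CAT3 and the 7 ascorbate peroxidase genes APX1, APX2, APX3, APX5, APX6, SAPX and TAPX. All 10 were in the table, which lists SAPX as APXS and TAPX as APXT. Messenger RNA was measured in shoots and in roots of Arabidopsis thaliana of the Col-0 accession, the standard laboratory strain, with 4 libraries of each tissue and no treatment in the labels. The growth text attached to these samples describes another plant species, so the age, medium, light and harvest time of the plants are not known here. The labels do not say whether the 4 samples of a tissue came from separately grown plants, so p-values cover only how these samples vary, and that variation could be technical. The libraries are whole tissues with many cell types, where fewer cells of a type and less RNA per cell cannot be told apart.

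Levels are given as FPKM (reads per unit of gene length and of a library size that the authors had scaled), as mean ± SD over 4 libraries per tissue unless single libraries are listed. A log2 fold change is the root mean less the shoot mean of log2(FPKM + 0.5), a scale on which low genes change too little, and its adjusted p is from limma over the 20314 genes tested. Libraries held 9857791 to 12460762 reads assigned to genes. Of 9 shoot markers (photosynthesis, guard cell, cuticle and leaf polarity genes), 8 still had reads in root, where FIL was at 0, and their summed level was 44730 to 58650 FPKM in shoot and 71.7 to 352.7 in root. In root libraries 1 to 4 that sum was 0.674%, 0.465%, 0.137% and 0.167% of the shoot mean, so by this sum root libraries 1 and 2 held more shoot-type transcript. The marker TMM did not follow it, at 0.175, 0.046, 0.115 and 0.135 FPKM in root libraries 1 to 4. Every other shoot marker with reads in root was higher in root libraries 1 and 2. Of 9 root markers, COBL9, PLT1, PLT2 and SMB had 0 reads in shoot, and the summed level was 1.8 to 3.99 FPKM in shoot and 328.8 to 507.2 in root.

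Catalase splits hydrogen peroxide into water and oxygen without a reductant and works in the peroxisome, where glycolate oxidase of photorespiration and the acyl-CoA oxidases of fatty acid breakdown release peroxide. Ascorbate peroxidase reduces hydrogen peroxide with ascorbate and is found in the cytosol, at the peroxisome membrane and in plastids. The oxidised ascorbate is recovered by monodehydroascorbate reductase, dehydroascorbate reductase and glutathione reductase, which together form the ascorbate-glutathione cycle.

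Most members had higher transcript levels in shoot, and the exceptions were ascorbate peroxidases. All 3 catalase genes were higher in shoot, by 3.01-fold to 3.84-fold. Among the ascorbate peroxidases, TAPX was 43.8-fold, APX6 7.45-fold and APX3 2.9-fold higher in shoot, APX1 was 1.37-fold and APX5 2.27-fold higher in root, SAPX did not pass the test, and APX2 was too low for the filter and was not tested. Of the 9 members tested, 6 were called higher in shoot and 2 higher in root at an adjusted p under 0.05, where 32.0% of all 20314 genes tested were called higher in shoot and 37.6% higher in root (69.6% in either direction). A call with at least a 2-fold change was reached by 7 of the 9, against 39.0% of all genes. The median log2 fold change of the 9 was -1.59, and that of all genes tested was 0.07. The FPKM of the 2 tissues did not overlap for 7 of the 9, against 64.8% of all genes tested. When library totals alone were used as the scaling, the median of all genes moved to 0.58, SAPX was called higher in root (log2 fold change 0.56, adjusted p = 3.63e-04), and the other 8 tested members kept their direction and their call. Under that scaling 59.8% of all genes were called higher in root and 19.7% higher in shoot.

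**Figure D1:**
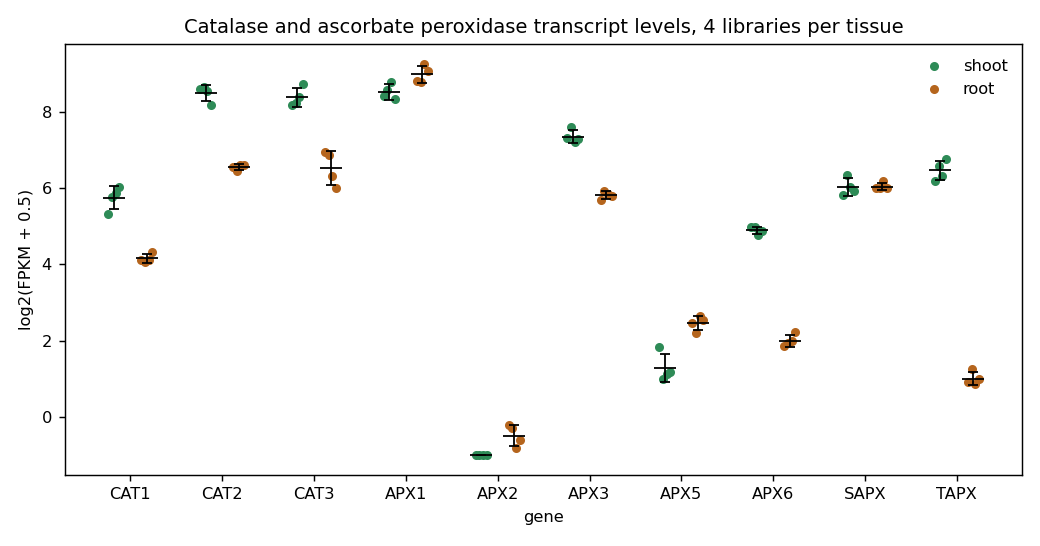
Level of each of the 10 genes in every library, as log2(FPKM + 0.5), with shoot libraries in green, root libraries in brown, and bars for the mean ± SD over 4 libraries. TAPX lies at 72.5 to 107.9 FPKM in shoot and 1.32 to 1.87 in root, while the SAPX points of the tissues overlap and APX2 is at 0 FPKM in every shoot library.

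CAT2 (AT4G35090, chromosome 4, 16700312 to 16703504, minus strand, TAIR10) encodes the main catalase of leaves, known for removing the peroxide of photorespiration. It stood at 384.8, 400.4, 371.7 and 288.1 FPKM in shoot libraries 1 to 4 in turn and at 93.5, 86.1, 97.0 and 96.1 in those of root. Every shoot library was above every root library, and shoot library 4 was the lowest of the shoot libraries. The log2 fold change was -1.94 (SE 0.12, adjusted p = 7.38e-08, 3.84-fold higher in shoot).

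CAT3 (AT1G20620, chromosome 1, 7142972 to 7146540, plus strand) encodes a catalase known from the vasculature and from senescing leaves. It stood at 287.0, 302.2, 332.2 and 422.7 FPKM in the 4 shoot libraries in turn and at 122.8, 115.3, 79.8 and 63.6 in those of root. The tissues did not overlap, and in root the libraries with more shoot marker transcript, 1 and 2, were the higher ones. The log2 fold change was -1.85 (SE 0.21, adjusted p = 1.55e-05), and -2.21 without root libraries 1 and 2 (adjusted p = 1.84e-05). CAT3 in root libraries 1 to 4 was 36.6%, 34.3%, 23.7% and 18.9% of its shoot mean, where the summed shoot markers were at 0.674%, 0.465%, 0.137% and 0.167%. The part of shoot-type transcript in the root values of CAT3 was not tested.

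CAT1 (AT1G20630, chromosome 1, 7146636 to 7150180, plus strand), whose enzyme is known from pollen and seeds, was the lowest catalase in both tissues. It stood at 39.5, 54.4, 58.2 and 64.5 FPKM in the 4 shoot libraries in turn and at 16.9, 16.3, 16.9 and 19.5 in those of root (log2 fold change -1.59, SE 0.14, adjusted p = 2.11e-06). Here too the tissues did not overlap, and shoot library 1 was the lowest of its tissue. CAT1 lies directly downstream of CAT3 on the same strand, with 95 bases between the genes and none in between. CAT1 was 13.8%, 14.2%, 21.2% and 30.7% of CAT3 in root libraries 1 to 4, a ratio that was not steady between root libraries.

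The 3 catalase coding sequences are alike, at 80.2% identity between CAT1 and CAT2, 76.7% between CAT1 and CAT3 and 76.2% between CAT2 and CAT3, as aligned from the TAIR10.1 genome. The longest run of bases shared by a pair of their transcripts is given here because it bears on whether reads of 150 bases can be told apart between the genes. Both runs lie in the coding sequence.
CAT1 and CAT2, 32 bases: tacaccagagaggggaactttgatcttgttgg
CAT2 and CAT3, 30 bases: atctggatctcttactggtctcaggctgat
No run was as long as a read. CAT2 overlaps AT4G35080 on the other strand by 95 bases. That gene was at 17.1 FPKM in shoot and 33 in root, and the libraries do not mark strand.

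CAT2 and CAT3 are known to be under control of the circadian clock, with CAT2 peaking in the morning and CAT3 in the evening. The 250 bases before each gene start are therefore shown, read from TAIR10.1, whose positions are the same as the table's for all 10 genes. They were searched on both strands for the evening element AAAATATCT, the CCA1 binding site AAAAATCT, the G-box CACGTG, the I-box core GATAAG and the heat shock element, and matches are in capitals.
CAT2, chr4:16703505-16703754, minus strand: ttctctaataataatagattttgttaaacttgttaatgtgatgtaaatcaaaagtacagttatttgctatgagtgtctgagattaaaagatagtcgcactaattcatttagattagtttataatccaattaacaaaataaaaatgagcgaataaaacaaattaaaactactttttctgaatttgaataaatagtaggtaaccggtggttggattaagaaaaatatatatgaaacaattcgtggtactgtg
CAT3, chr1:7142722-7142971, plus strand: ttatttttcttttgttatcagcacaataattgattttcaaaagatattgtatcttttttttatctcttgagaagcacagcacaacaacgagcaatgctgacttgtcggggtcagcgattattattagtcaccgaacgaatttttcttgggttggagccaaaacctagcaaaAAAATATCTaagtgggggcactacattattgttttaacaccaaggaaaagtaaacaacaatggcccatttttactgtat
The CAT3 window held an evening element 79 bases before the gene start, and 2.36% of 27419 windows of the same length before nuclear protein-coding genes held this motif. The CAT2 window held none of the 5 motifs. Other matches in the 10 windows were an I-box core 10 bases before CAT1 and a G-box before APX3 (49 bases) and APX2 (204 bases). Of the 27419 windows, 12.3% held an I-box core and 6.48% a G-box. No other member had an evening element in its window, but the windows of CAT1, APX3, TAPX and APX6 overlap a neighbouring gene, for CAT1 that of CAT3.

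The balance of CAT2 and CAT3 differed more between libraries of a tissue than between the tissues. CAT2 made up 54.1%, 52.9%, 48.8% and 37.2% of the summed catalase FPKM in shoot libraries 1 to 4, compared with 40.1%, 39.5%, 50.1% and 53.6% for the root libraries in turn. The tissue means of 48.2% ± 7.73 and 45.8% ± 7.11 were not shown to differ (two-sided exact permutation test, p = 0.743, adjusted p = 0.836 over 9 such values). The CAT3 share, 44.6% ± 6.82 in shoot and 45.6% ± 8.68 in root, was not shown to differ either (exact permutation test, p = 0.943, adjusted p = 0.943). Shoot library 4 was the only shoot library with more CAT3 than CAT2, and root libraries 1 and 2 had more CAT3 than CAT2 while root libraries 3 and 4 had less. Without root libraries 1 and 2, root minus shoot turned to 3.62 percentage points for CAT2 and -6.26 for CAT3, and still did not pass (exact permutation test, adjusted p = 0.667 and adjusted p = 0.514).

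Transcripts of the clock varied between libraries of a tissue as well, and CCA1 and PRR5 are given here as examples chosen after their values were seen. CCA1, a morning clock regulator, was at 28.1, 17.7, 14.2 and 8.29 FPKM in the 4 shoot libraries in turn and at 4.44, 3.06, 1.71 and 1.12 in those of root. PRR5, a clock repressor expressed later in the day, was at 17.9, 19.1, 29.5 and 51.0 FPKM in shoot and at 11.6, 18.7, 17.3 and 19.5 in root. In shoot, library 4 thus had the lowest CCA1, the highest PRR5, the lowest CAT2 and the highest CAT3. In root, library 4 also had the lowest CCA1 and the highest PRR5 but the lowest CAT3. CCA1 thus fell from library 1 to library 4 in both tissues, while CAT3 rose over them in shoot and fell in root. The part of harvest time in the catalase values was not tested.

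**Figure D2:**
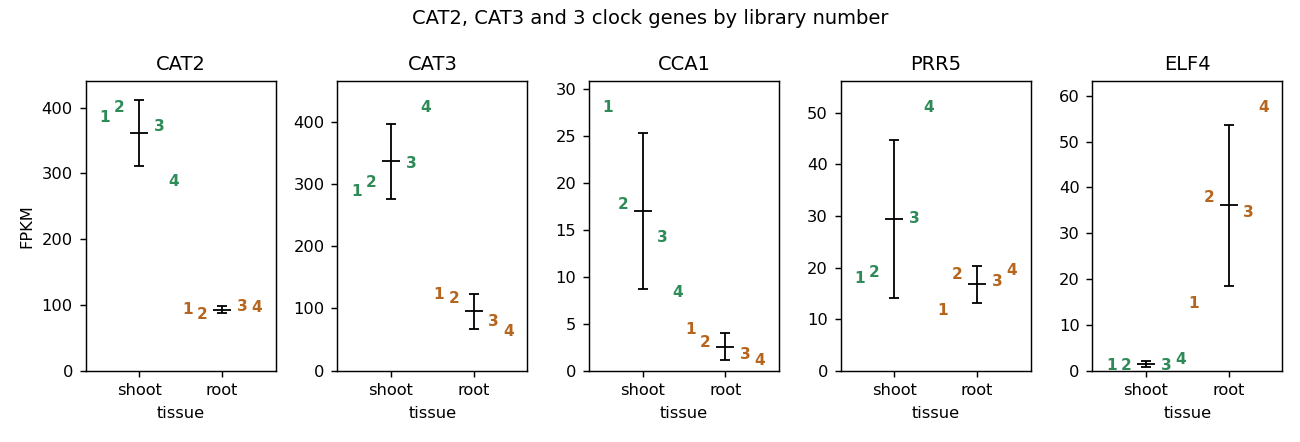
FPKM of CAT2, CAT3 and the clock genes CCA1, PRR5 and ELF4 in each library, shown by the library's number, with bars for the mean ± SD over 4 libraries. Shoot library 4 is lowest for CAT2 and CCA1 and highest for CAT3, PRR5 and ELF4, while root library 4 is lowest for both CAT3 and CCA1.

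Of the 9 clock genes listed, 4 had their higher level in shoot, 2 in root, and 3 were not called (median log2 fold change -0.67, against 0.07 for all genes). Among all genes tested, 32.0% were called higher in shoot and 37.6% in root. PRR7, the most abundant, stood at 78.6 ± 8.61 FPKM in shoot against 17.4 ± 4.61 for root (log2 fold change -2.17, adjusted p = 7.62e-07). ELF4, a part of the evening complex, stood at 1.41 ± 0.65 and 36.1 ± 17.5 FPKM (log2 fold change 4.17, adjusted p = 1.94e-06). LHY and LUX, higher in shoot, lost their call with library totals alone (adjusted p = 0.0695 and adjusted p = 0.532 by limma), and LUX also without root libraries 1 and 2 (adjusted p = 0.112). GI gained a call towards root there, at 0.51 by library totals.

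APX1 (AT1G07890, chromosome 1, 2437281 to 2439665, plus strand) encodes the main cytosolic ascorbate peroxidase. It stood at 338.8, 376.6, 441.4 and 320.4 FPKM in the 4 shoot libraries in turn and at 444.4, 440.8, 614.5 and 536.6 in those of root. The tissues touched: shoot library 3 was slightly above root library 2. The log2 fold change of 0.46 passed the test (SE 0.15, 95% interval 0.13 to 0.79, adjusted p = 0.0173), but without root library 3 it was 0.36 and did not pass (adjusted p = 0.0591). Scaled by library totals alone it was 1.02 (adjusted p = 5.49e-05), so its size moved with the scaling.

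APX2 (AT3G09640, chromosome 3, 2956156 to 2958330, plus strand) encodes a second cytosolic enzyme that is known for strong induction by heat and high light. It had 0 reads in all 4 shoot libraries and 13 reads over the root libraries, at 0.359, 0.315, 0.0659 and 0.154 FPKM in root libraries 1 to 4. Set against 3 reads over the 4 shoot libraries, which is 0.0803 FPKM, its pooled root level of 0.226 FPKM was 2.82-fold higher. This allows for the counting error of the 0 shoot reads but not for that of the 13 root reads, so it is not a lower bound. A fit with no filter other than 1 read in any library called APX2 higher in root (log2 fold change 0.51, adjusted p = 0.00974 by limma). With 0 reads in shoot, APX2 entered that fit only through its root reads and could differ only towards root. The size of that change rested on the 0.5 added to FPKM, so the call adds no support. The 250 bases before its start are shown because heat shock factors are known to act on this promoter.
APX2, chr3:2955906-2956155, plus strand: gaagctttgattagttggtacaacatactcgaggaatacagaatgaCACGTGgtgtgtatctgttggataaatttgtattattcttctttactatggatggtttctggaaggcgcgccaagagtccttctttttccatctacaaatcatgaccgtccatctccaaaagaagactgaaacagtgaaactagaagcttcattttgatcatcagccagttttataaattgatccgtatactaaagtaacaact
The window held a G-box 204 bases before the gene start, as do 6.48% of all such windows, and no heat shock element of the spelling searched, which 0.387% of them hold. Shorter forms such as GAANNTTC, which this window holds as gaagcttc, were not searched in any window. The coding sequences of APX1 and APX2 were 72.5% identical, with no shared run above 12 bases.

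The regulators of heat and high light responses were low or varied between libraries. HSFA2, a heat stress factor known to induce APX2, was at 0.0613 ± 0.123 FPKM in shoot and 0.182 ± 0.194 in root and was not tested. These levels rest on 4 reads in shoot, all in shoot library 1, and on 18 in root, with 0 to 11 a library. Of the 7 genes of this list that were tested, 3 had their higher level in root, 2 in shoot, and 2 were not called (median log2 fold change 0.37). All genes tested had a median of 0.07, with 37.6% called higher in root and 32.0% in shoot. ZAT12, a zinc finger gene known to respond to peroxide, was at 10.6, 21.7, 3.16 and 0.985 FPKM in shoot libraries 1 to 4 and at 36.3, 33.3, 61.3 and 49.5 in those of root (log2 fold change 2.87, SE 0.68, adjusted p = 0.0033). Its tissues did not overlap, and shoot libraries 1 and 2 were higher than the other shoot libraries. ZAT10, the most abundant of the list, stood at 29.9 ± 26.1 and 51.3 ± 18.5 FPKM, which was not called (log2 fold change 1.03, adjusted p = 0.0691), and HSFA3 was the higher in shoot tissue (3.62 ± 0.806 and 1.1 ± 0.322 FPKM, log2 fold change -1.37, adjusted p = 8.27e-05). HSFA1A, otherwise higher in shoot, was no longer called with library totals alone (adjusted p = 0.958), while ZAT10 and HSFA1B were then called higher in root. HSFA1A also lost its call without shoot library 2, shoot library 3 or root library 4 (adjusted p = 0.0607, adjusted p = 0.0589 and adjusted p = 0.0581), and HSFA1D, higher in root, lost it without root libraries 1 and 2 (adjusted p = 0.0534).

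APX3 (AT4G35000, chromosome 4, 16664724 to 16667721, minus strand) encodes an ascorbate peroxidase anchored in the peroxisome membrane, and it lies 32590 bases from CAT2 with 8 genes between them. It stood at 158.8, 192.6, 148.7 and 155.0 FPKM in the 4 shoot libraries in turn and at 51.1, 60.3, 57.2 and 55.1 in those of root. The tissues were well apart (log2 fold change -1.54, SE 0.10, adjusted p = 1.71e-07, 2.9-fold higher in shoot). APX5 (AT4G35970, chromosome 4, 17028586 to 17030558, plus strand), which the table describes as a second peroxisomal form, went the other way at a low level. It stood at 3.06, 1.48, 1.7 and 1.79 FPKM in the 4 shoot libraries in turn and at 5.06, 4.11, 5.73 and 5.37 in those of root, from 16 to 36 reads a library in shoot and 66 to 110 in root. The log2 fold change was 1.18 (SE 0.20, adjusted p = 3.16e-04). APX3 and APX5 share 69.8% of aligned coding bases. APX5 overlaps AT4G35980 on the other strand by 76 bases, a gene at 13.6 FPKM in shoot and 22.3 in root, and what share of the APX5 reads came from it cannot be told without strand.

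SAPX and TAPX encode the plastid ascorbate peroxidases. The SAPX enzyme is soluble in the stroma and is also sent to mitochondria, while the TAPX enzyme carries a tail that anchors it in the thylakoid membrane of chloroplasts. TAPX (AT1G77490, chromosome 1, 29117500 to 29121093, plus strand) stood at 72.5, 94.4, 80.0 and 107.9 FPKM in the 4 shoot libraries in turn and at 1.4, 1.87, 1.32 and 1.51 in those of root. This was the largest difference among the 9 members tested (log2 fold change -5.45, SE 0.14, 95% interval -5.77 to -5.14, adjusted p = 2.63e-10, 43.8-fold higher in shoot). The root libraries held 1.58%, 2.11%, 1.48% and 1.7% of the shoot mean of TAPX. In root libraries 3 and 4, where the summed shoot markers were at 0.137% and 0.167%, TAPX was within or just below its range in root libraries 1 and 2.

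SAPX (AT4G08390, chromosome 4, 5314871 to 5317963, plus strand) stood at 55.9, 80.3, 65.3 and 60.3 FPKM in the 4 shoot libraries in turn and at 63.2, 63.3, 71.8 and 63.5 in those of root. The tissues overlapped, with means of 65.45 ± 10.7 and 65.45 ± 4.24 FPKM. The difference did not pass the test (log2 fold change 0.01, SE 0.11, adjusted p = 0.937), and its 95% interval ran from -0.24 to 0.26. SAPX and TAPX share 76.9% of aligned coding bases, and the longest run common to their transcripts is shown because so small a stretch leaves little for reads of 150 bases to share.
SAPX and TAPX, 21 bases: agaggtggagctaatggaagt
The log2 ratio of TAPX to SAPX within a library, which does not depend on library scaling, was 0.38, 0.23, 0.29 and 0.84 in the 4 shoot libraries in turn and -5.5, -5.08, -5.77 and -5.4 in those of root. TAPX exceeded SAPX in every shoot library and was far below it in every root library (two-sided exact permutation test, p = 0.0286, the smallest that 4 against 4 libraries can give, adjusted p = 0.0429 over 9 values).

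APX6 (AT4G32320, chromosome 4, 15602721 to 15605400, plus strand) is listed as a putative ascorbate peroxidase. It stood at 31.1, 30.8, 26.9 and 28.7 FPKM in the 4 shoot libraries in turn and at 3.11, 3.33, 3.49 and 4.15 in those of root. The groups were narrow and far apart (log2 fold change -2.9, SE 0.11, adjusted p = 2.52e-09). Its coding sequence shared 54.9% to 60.8% of aligned bases with the other ascorbate peroxidases.

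The order of the members by FPKM, a level per gene length, changed between the tissues. In shoot APX1, CAT2 and CAT3 led with means of 369.3, 361.2 and 336.0 FPKM and ranges that overlapped, followed by APX3 and TAPX. SAPX and CAT1 came next, each with a range that overlapped its upper neighbour's, and APX6, APX5 and APX2 followed at separate levels. In root APX1 stood alone at 509.1 FPKM, above CAT3 and CAT2 with 95.4 and 93.2 FPKM and overlapping ranges. SAPX, APX3 and CAT1 came next at levels that did not overlap, then APX5 and APX6, which did, and TAPX fell to the second lowest place. The gene length used by the authors joins the exons of all isoforms and is 1.22 to 2.38 times the coding length of the members, most for APX1. With levels per coding length, a setting chosen after seeing the data, APX1 was at 877.8 and CAT3 and CAT2 at 686.9 and 675.8 in shoot, so the order of these last members turned.

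The summed catalase level was 711.3, 756.9, 762.1 and 775.3 FPKM in the 4 shoot libraries in turn and 233.2, 217.7, 193.6 and 179.2 in those of root. Shoot was above root in every library (two-sided exact permutation test, p = 0.0286, adjusted p = 0.0429). The summed ascorbate peroxidase level, in contrast, was 718.6 ± 60.0 FPKM in shoot and 640.7 ± 87.9 in root, and no difference was shown (exact permutation test, p = 0.143, adjusted p = 0.184). Root minus shoot was -77.84 FPKM with all libraries and -8.387 without root libraries 1 and 2. This sum was higher in root with library totals alone, at 774.8 against 591.6 (adjusted p = 0.0367 by the exact permutation test), so its direction rested on the scaling. The log2 ratio of the catalase sum to the ascorbate peroxidase sum, which is free of scaling, was 0.07 ± 0.11 in shoot and -1.64 ± 0.34 in root (exact permutation test, p = 0.0286, adjusted p = 0.0429).

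The make-up of the ascorbate peroxidase transcripts also differed by tissue. The APX1 share was 51.3% ± 4.62 in shoot and 79.2% ± 2.16 in root. The plastid share of SAPX and TAPX was 21.5% ± 2.78 and 10.5% ± 0.941, nearly all of it SAPX in root, where TAPX held 0.174% to 0.326% of the family. The APX3 share was 22.8% ± 2.37 in shoot and 8.83% ± 1.26 in root. For each of these 3 shares the libraries of the tissues did not overlap (two-sided exact permutation test, p = 0.0286, adjusted p = 0.0429).

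**Figure D3:**
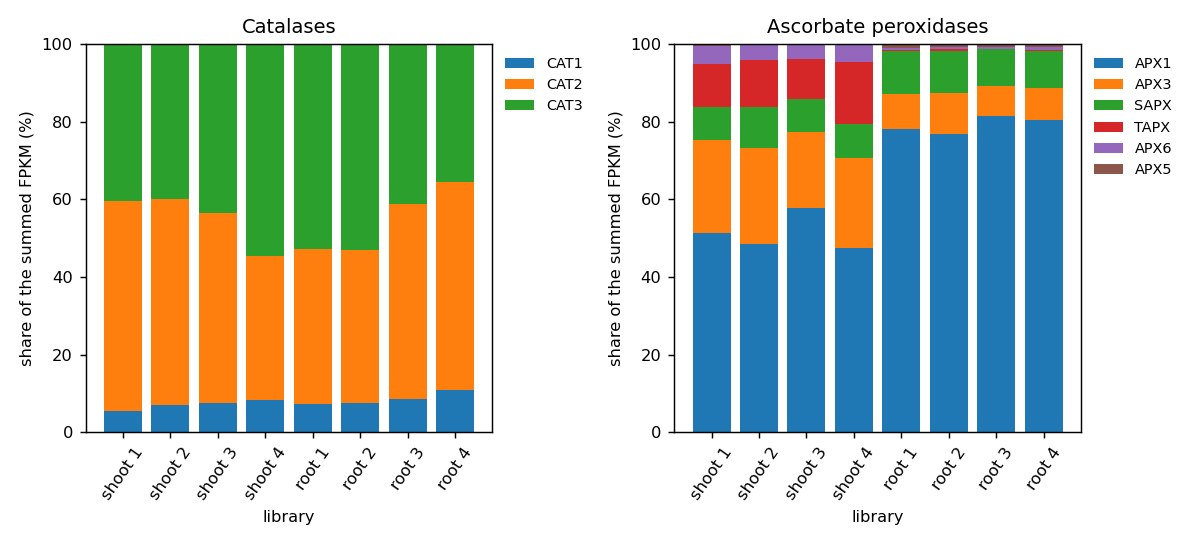
Share of each gene in the summed FPKM of its family, in percent, for every library (left, catalases; right, ascorbate peroxidases, with APX2 at no more than 0.0632% not drawn). CAT2 and CAT3 trade places between libraries of the same tissue, while APX1 rises from a mean of 51.3% in shoot to 79.2% in root and TAPX nearly disappears.

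Among the 10 genes that recycle ascorbate and glutathione, 5 had their higher level in root, 4 in shoot, and MDAR1 was not called (median log2 fold change 0.15, against 0.07 for all genes). Among all genes tested, 37.6% were called higher in root and 32.0% in shoot. DHAR3 and GR2, which encode plastid forms of dehydroascorbate reductase and glutathione reductase, were higher in shoot. DHAR3 stood at 185.4 ± 19.9 FPKM in shoot against 14.2 ± 1.29 for root (log2 fold change -3.66, adjusted p = 3.53e-10), and GR2 at 157.9 ± 14.0 and 29.7 ± 3.19 (log2 fold change -2.39, adjusted p = 6.14e-09). GR2 was picked after its values were seen, as was every other listed gene named in these results that is not the most abundant, the most changed or the most changed against the majority of its list.

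The genes higher in root were MDAR2, MDAR3, DHAR1, DHAR2 and GR1. MDAR3 stood at 2.82, 1.73, 3.95 and 0.834 FPKM in the 4 shoot libraries in turn and at 97.1, 126.9, 149.3 and 103.2 in those of root, the largest change of the list (log2 fold change 5.52, SE 0.32, adjusted p = 6e-08). DHAR1, the most abundant, stood at 250.6 ± 22.2 and 398.2 ± 18.3 FPKM (log2 fold change 0.67, adjusted p = 1.22e-04). MDAR2 and DHAR2 had log2 fold changes of 0.91 and 0.85, and GR1 one of 0.42 (adjusted p = 0.0251) that was lost without shoot library 3, root library 1 or root library 3 (adjusted p = 0.0521, adjusted p = 0.0615 and adjusted p = 0.063), and without root libraries 1 and 2 together. MDAR4, the form of the peroxisome membrane, was higher in shoot at -0.7, but with library totals alone at -0.15 it was not called (adjusted p = 0.152). MDAR6, sent to plastids and mitochondria, was at -0.32 (adjusted p = 0.0314) and turned to 0.24 with library totals alone (adjusted p = 0.0408), where MDAR1 was called higher in root as well (0.43). MDAR6 also lost its call without any 1 of shoot libraries 2, 3 and 4 or root libraries 1 and 2 (adjusted p = 0.0583 to 0.0865).

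**Figure D4:**
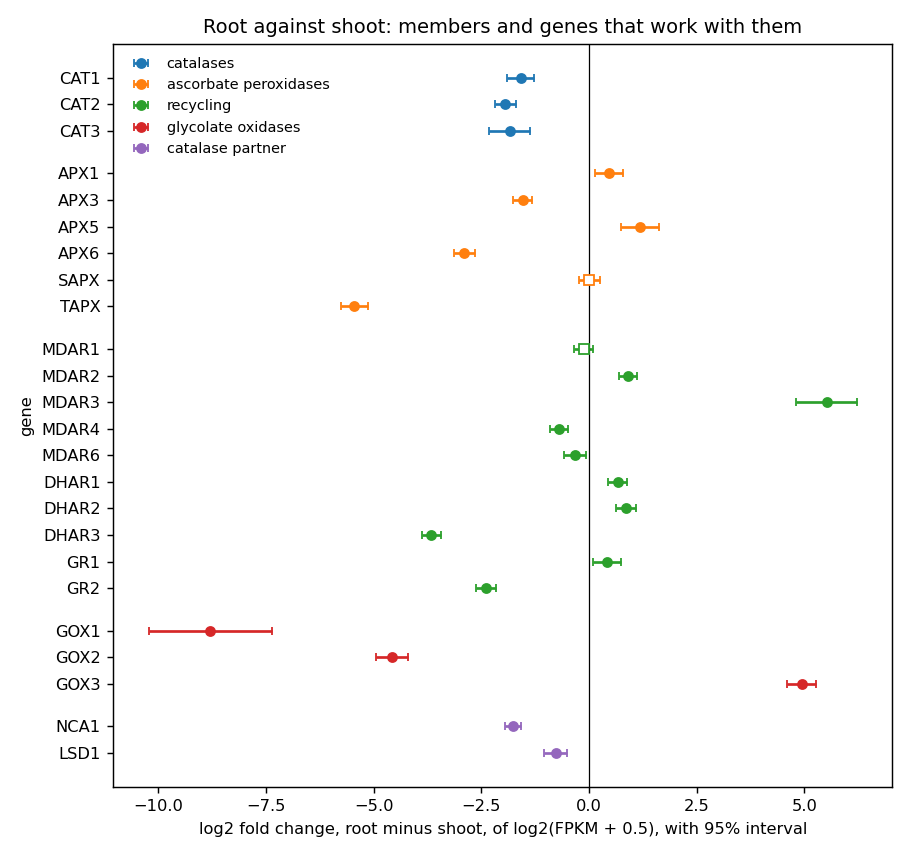
Log2 fold change, root minus shoot, of log2(FPKM + 0.5) with its 95% interval for the 9 members tested, the recycling genes, the 3 glycolate oxidase genes and the catalase partners NCA1 and LSD1, where open squares mark genes that were not called. TAPX at -5.45 and MDAR3 at 5.52 mark the ends among the ascorbate genes, and the 3 catalases lie between -1.94 and -1.59.

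Of the 10 genes of ascorbate synthesis, 6 had their higher level in shoot, 2 in root, and 2 were not called (median log2 fold change -0.64). All genes tested had a median of 0.07, with 32.0% called higher in shoot and 37.6% in root. GME, the epimerase that makes GDP-galactose, was both the most abundant and the most changed, at 204.4 ± 13.7 FPKM in shoot against 39.8 ± 2.22 for root (log2 fold change -2.35, adjusted p = 1.68e-09). VTC2, the GDP-galactose phosphorylase known as a control point of the pathway, stood at 24.7 ± 5.38 and 11.2 ± 1.86 FPKM (log2 fold change -1.1, adjusted p = 1.48e-04). PMI2, a mannose phosphate isomerase gene, was the largest change towards root (2.66 ± 2.04 and 5.45 ± 1.24 FPKM, log2 fold change 1.09, adjusted p = 0.0219), and it lost its call without shoot library 2 or 4 or root library 2 or 3 (adjusted p = 0.0537 to 0.061). PMI1 and GLDH were no longer called with library totals alone (-0.2 and 0.01), where VTC1 and VTC5 were called higher in root (0.57 and 0.96).

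Catalase works beside enzymes that make peroxide in the peroxisome, and of 11 such oxidase genes 5 had their higher level in shoot, 3 in root, and 3 were not called (median log2 fold change 0.01). All genes tested had a median of 0.07, with 32.0% called higher in shoot and 37.6% in root. The glycolate oxidase genes GOX1 and GOX2, of photorespiration, were higher in shoot. GOX1 stood at 1111 ± 100 FPKM in shoot and at 7.91, 4.67, 0.298 and 0.61 in root libraries 1 to 4 (log2 fold change -8.8, SE 0.64, adjusted p = 4.2e-07), with the higher values in the root libraries that held more shoot marker transcript, whose part in these values was not tested. Without root libraries 1 and 2 the log2 fold change of GOX1 was -10.2 (adjusted p = 1.55e-08). GOX3, listed as GLO5, stood at 0.394 ± 0.169 and 26.7 ± 1.95 FPKM (log2 fold change 4.94, adjusted p = 6.29e-10), the largest change towards root. GOX3, and ACX6 at 0.0251 ± 0.029 FPKM in shoot, met the filter through their root libraries. A call for these genes could therefore go only towards root. ACX4, an acyl-CoA oxidase gene, stood at 164.3 ± 12.4 and 165.4 ± 11.7 FPKM and was not called (log2 fold change 0.01). ACX2, ACX3 and ACX4 gained a call towards root with library totals alone, and HAOX2, ACX1 and ACX5 were no longer called higher in shoot.

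Of 7 genes of catalase partners and peroxisomal import, 6 were higher in shoot, none was higher in root and PEX7 was not called (median log2 fold change -0.81). All genes tested had a median of 0.07, with 32.0% called higher in shoot and 37.6% in root. NCA1, a chaperone needed for catalase activity, was at 96.5, 106.6, 97.6 and 94.5 FPKM in the 4 shoot libraries in turn and at 27.9, 32.5, 26.9 and 28.1 in those of root. Its log2 fold change of -1.76 (SE 0.09, adjusted p = 1.58e-08) lay within the range of the 3 catalases. AKR2A, an ankyrin repeat protein known to bind APX3, stood at 182 ± 9.19 and 49.6 ± 3.75 FPKM (log2 fold change -1.87, adjusted p = 9.25e-09), the most abundant and the most changed of the list. The receptor gene PEX5 and the docking genes PEX13 and PEX14 had log2 fold changes of -0.75, -0.81 and -0.89. LSD1, PEX5 and PEX13 were no longer called with library totals alone, and PEX7 was called higher in root (0.46, adjusted p = 0.0111).

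Peroxiredoxins and glutathione peroxidase-like enzymes remove peroxides with reductants other than ascorbate, among them thioredoxin. Of 17 such genes 15 were tested, of which 9 had their higher level in root, 6 in shoot, and none was uncalled (median log2 fold change 0.33). All genes tested had a median of 0.07, with 37.6% called higher in root and 32.0% in shoot. PRXIID, at 0.102 ± 0.0687 FPKM in shoot, met the filter through its root libraries and could be called only towards root. GPX7, at 0.124 ± 0.093 FPKM in root, met it through its shoot libraries and could be called only towards shoot. The 6 higher in shoot, 2CPA, 2CPB, PRXQ, PRXIIE, GPX1 and GPX7, all encode plastid proteins. 2CPA stood at 1064 ± 142 FPKM in shoot against 83.6 ± 5.75 for root (log2 fold change -3.65, adjusted p = 8.93e-10), and PRXQ at 368.1 ± 54.2 and 6.5 ± 0.554 (log2 fold change -5.71, adjusted p = 1.06e-10). PRXIIB, of the cytosol, stood at 86.2 ± 1.21 and 266.0 ± 28.9 FPKM (log2 fold change 1.61, adjusted p = 6.46e-08). No call of this list changed with library totals alone.

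Since CAT2 falls and CAT3 rises in ageing leaves, senescence genes were listed too. SAG12, the standard senescence marker, had 0 reads in all 8 libraries. Of the 6 tested, 2 had their higher level in root, 2 in shoot, and 2 were not called (median log2 fold change 0.31). All genes tested had a median of 0.07, with 37.6% called higher in root and 32.0% in shoot. SAG13, at 0.0659 ± 0.044 FPKM in shoot, met the filter through its root libraries and could be called only towards root. SAG21, which also responds to oxidants, was the most abundant and most changed, at 959.7 ± 81.9 FPKM in shoot against 90.1 ± 22.1 for root (log2 fold change -3.43, adjusted p = 1.53e-08). NAP and NYE1 were called near the threshold (adjusted p = 0.0421 and adjusted p = 0.0207), and NAP lost its call without any 1 of 7 libraries (adjusted p = 0.0602 to 0.0994) while NYE1 lost it without shoot library 1 or 2 (adjusted p = 0.0578 and adjusted p = 0.0549). NYE1 was no longer called with library totals alone, where ORE1 and WRKY53 were called higher in root.

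The genes most like the leading members were found by the root mean square difference of log2(FPKM + 0.5) over the 8 libraries. For CAT2, the highest catalase in shoot, they were AT3G62530, an ARM repeat protein gene, at 0.227, AT1G25275 at 0.293, and ISPH, an enzyme gene of plastid isoprenoid synthesis, at 0.298. For CAT3, the highest catalase in root, they were AT1G67870 at 0.273, AT5G25460 at 0.338 and ISPH again at 0.404. For APX1, the highest ascorbate peroxidase in both tissues, they were the ribosomal protein genes RPL27C at 0.166 and AT2G34480 at 0.179 and the enolase gene ENO2 at 0.169. The mean of RPL27C was 384.0 FPKM in shoot and 501.1 in root, close to 369.3 and 509.1 for APX1.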

How the data were processed

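Shoot and root of Arabidopsis Col-0 were compared, with 4 libraries each, grouped by the sample titles. Per the labels' protocols, poly-A RNA was sequenced as pairs of 150 bp reads from fragments of 370 to 420 bp, with no strand marking. The tools HISAT2 2.0.5 and featureCounts 1.5.0-p3 and the build TAIR10 are named in the submitters' processing notes. Although the deposited sheet bears the name counts, it holds FPKM, computed by the authors with a scaled library size whose method is not given in the sources used here (0.77 to 0.865 times the read total in shoot, 1.18 to 1.25 in root). Whole reads were recovered from FPKM and gene length (largest deviation 4.07e-10 reads).

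Genes with at least 0.5 FPKM in at least 4 of 8 libraries were tested with limma 3.58.1 (R 4.3.3, trend) on log2(FPKM + 0.5), root against shoot. The Benjamini-Hochberg adjustment ran over 20314 genes, with calls under 0.05. Sums, shares and ratios of the families were tested over libraries by two-sided permutation (exact), adjusted over 9 values. The fold given for APX2 sets 3 reads in place of its 0 in shoot and covers the counting error of shoot only. The members and the gene lists were chosen with earlier results of these data known. Named are all 10 members, from each of 8 lists the most abundant, the most changed and the most changed gene against the majority, and the 3 nearest genes of the leading members. Other listed genes were named after their values were seen. Gene positions matched TAIR10.1 for 99.9% of 32548 nuclear genes. Coding sequences and upstream windows were read from TAIR10.1, and coding sequences were aligned with Biopython 1.88. Proteins were not used here. Alternatives were other pseudocounts (0.1 and 1), filters and scalings, limma-voom, a replicate block and libraries left out.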

Additional observations from a re-analysis of the deposited data

Results flagged for a closer look

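In 70 groups of 4 libraries, 3 had a library set apart from the rest of its tissue by a gap above Dixon's 95% critical value, about what chance gives at 1 in 20. In root, SAPX reached 71.8 FPKM in library 3, where the others lay between 63.2 and 63.5. ELF4 was at 2.38 FPKM in shoot library 4 and at 1.05 to 1.14 in the other shoot libraries. GOX3 was at 0.646 FPKM in shoot library 4 and at 0.291 to 0.336 in the others.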

How the results depend on the processing

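Of 610 values recomputed under other settings, 500 kept their direction and their side of the threshold (for counts and untested values, stayed close), and 11 turned in sign. Every tested member except APX1 and SAPX kept its direction and call in each setting run. APX1 ranged from 0.364 to 0.549 with 1 library left out, not called without root library 3, where members called higher in root ranged from 1 to 2. They numbered 3 with no filter, where APX2 entered only through its root reads, and 3 with library totals alone. SAPX, not called, was -0.004 by median of ratios, ranged from -0.06 to 0.113 with 1 library left out, and was called at 0.563 with library totals alone. That scaling called 12142 genes higher in root and 3997 in shoot. It left 2 recycling genes higher in shoot and 4 synthesis genes higher in root, 6 oxidases in root and 2 in shoot, 1 partner gene in root and 3 in shoot, 5 regulators in root and 1 in shoot, 2 clock genes in shoot, and 4 senescence genes in root and 1 in shoot. It turned the summed ascorbate peroxidase difference to 183.2.

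With 1 library left out, synthesis genes higher in root ranged from 1 to 3, regulators higher in shoot from 1 to 2, and senescence genes from 1 to 2 in either direction. Senescence genes higher in root numbered 1 with pseudocount 0.1, with no filter, with a filter of 1 FPKM, with the replicate block and without root libraries 1 and 2. Without those 2 libraries, 1 synthesis gene was higher in root and 1 senescence gene in shoot.

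Family values, given as root minus shoot, lose their call in the exact permutation test whenever a library is left out, since fewer libraries cannot pass (adjusted p = 0.0857, and 0.2 without root libraries 1 and 2). The catalase sum ranged from -558.8 to -536.6, the APX1 share from 26.7 to 30.12, the plastid share from -11.76 to -9.785, the APX3 share from -15.12 to -13.34, the log2 family ratio from -1.819 to -1.594, the log2 TAPX to SAPX ratio from -5.99 to -5.736, the uncalled CAT3 share from -1.481 to 4.344, and the uncalled ascorbate peroxidase sum from -115.6 to -53.77. Without root libraries 1 and 2 they were -565.0, 29.72, -11.76, -14.91, -1.995, -6.019 and -6.261, the CAT2 share was 3.619, and the ascorbate peroxidase sum was -8.387 against -77.84 with all libraries. That sum was -31.04 per coding length and -139.2 in reads not per length.

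Deviations of shoot and root libraries with the same number correlated at 0.0152 to 0.071, and those with different numbers at -0.0617 to 0.0263. All were small, but the same-number values were all positive, so pairing by number is not excluded. The main tests did not take the numbers as pairs. In the fit with the replicate block CAT2 stayed at -1.94 and no member's call changed. By paired exact permutation test with the replicate block, which cannot pass with 4 pairs (adjusted p = 0.161), the values were -545.5 for the catalase sum, 27.95, -10.94 and -14.0 for the APX1, plastid and APX3 shares, and -1.703 and -5.871 for the log2 ratios. Depth limits APX2, with 13 reads in all, and APX5, with 16 to 110 reads a library.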
